A study of Mus musculus with 11 samples.

Results

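Messenger RNA of 9 genes of cytotoxic lymphocytes was examined in whole lacrimal glands of male NOD mice. The genes were picked by name, as the main effectors of killing and the type 1 cytokine: *Ifng*, *Gzma*, *Gzmb*, *Gzmk*, *Prf1*, *Nkg7*, *Fasl*, *Tbx21* and *Eomes*, 9 of the 19058 genes in the table of estimated counts. NOD mice develop autoimmunity spontaneously, and in males the lacrimal gland, which makes the watery part of tears, becomes infiltrated by lymphocytes. The study asked which genes in the gland depend on TLR7, an endosomal sensor of single-stranded RNA, and on IFNAR1, a chain of the receptor for type I interferon. RNA sequencing was done on 1 gland from each of 3 WT mice, 5 *Tlr7* KO mice and 3 *Ifnar1* KO mice. The WT mice were NOD/ShiLtJ, and both knockouts were on the NOD background, so that all groups share the diabetes- and dacryoadenitis-prone genome. The *Tlr7* KO carried a 2 bp deletion made with CRISPR/Cas9 and bred to homozygosity from edited NOD embryos, and the *Ifnar1* KO was the NOD *Ifnar1* em16/em16 line. Both knockouts are germline, so no cell type is singled out by either. WT and *Tlr7* KO mice were 20 to 22 weeks old, and the age of the *Ifnar1* KO mice is not given in the sources used here. The study left out 1 *Ifnar1* KO mouse that resembled WT in expression and inflammation, so the *Ifnar1* KO group was narrowed by an outcome related to these genes. That mouse was not analysed here.

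Cytotoxic T cells and NK cells kill target cells in 2 ways. In the first, perforin lets granzymes, which are serine proteases stored in granules, enter the target, where granzyme B starts apoptosis by cleaving caspases and Bid. In the second, Fas ligand on the killer engages Fas on the target. The same cells, and type 1 helper T cells, secrete interferon gamma, which induces genes for antigen presentation and lymphocyte-attracting chemokines in the cells around them. T-bet (*Tbx21*) and eomesodermin (*Eomes*) are T-box transcription factors that drive *Ifng* and the granule genes in these lymphocytes.

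All 9 genes had a lower mean level in both knockouts than in WT. The lowest mean of each was in *Ifnar1* KO glands. All 9 were also scarce, which limits the statistics: per kilobase of exon, the WT level was highest for *Nkg7* at 2.61 ± 1.48 CPM (counts scaled to library size with TMM factors, mean ± SD of 3 mice). *Gzma* followed at 0.890 ± 0.594 CPM per kilobase in WT. *Tbx21* (0.430 ± 0.226), *Gzmk* (0.417 ± 0.115), *Prf1* (0.383 ± 0.205), *Eomes* (0.259 ± 0.128), *Gzmb* (0.192 ± 0.164) and *Fasl* (0.145 ± 0.0276) came next on the same scale. *Ifng* was last at 0.0951 ± 0.147. Neighbours in this order differed by less than the larger of their SDs, except for *Nkg7* and *Gzma*. In bulk tissue, fewer lymphocytes and less RNA per lymphocyte cannot be told apart.

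Positions are on GRCm38 with the GENCODE M21 annotation. *Ifng* is at chr10:118441046-118445892 on the plus strand and *Prf1* at chr10:61297833-61304680, also plus. *Gzma* (chr13:113093825-113100981) and *Gzmk* (chr13:113171608-113225908) lie near each other on the minus strand. *Gzmb* is at chr14:56258838-56262260 (minus), *Nkg7* at chr7:43437073-43438249 (plus) and *Fasl* at chr1:161780689-161788495 (minus). *Tbx21* is at chr11:97098071-97115331 (minus) and *Eomes* at chr9:118478212-118486132 (plus). The estimated counts are per gene, over all exons. *Gzmk* overlaps *Esm1* on the opposite strand, *Eomes* overlaps the antisense gene *Gm33460*, and *Ifng* overlaps the unvalidated transcript *Gm49751* on its own strand. Whether the counting used strand is not given in the sources used here, so reads from such pairs may have been shared.

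The 250 bases before the start site were searched in all 9 genes for motifs of factors known to act on them, and 3 of these windows are shown because they hold motifs of the T-box, STAT, RUNX and AP-1 families. The sequences and start sites are RefSeq's, on GRCm38.p6, and for *Gzmb*, *Gzmk*, *Nkg7*, *Prf1* and *Eomes* these starts differ from the GENCODE gene bounds given above. The *Gzmk* window and the end of the *Nkg7* window, with its T-box motif, lie inside the GENCODE gene. Sequences are written 5′ to 3′ on the strand of the gene, with motif matches in capitals.
Ifng promoter, chr10:118440796-118441045, plus strand: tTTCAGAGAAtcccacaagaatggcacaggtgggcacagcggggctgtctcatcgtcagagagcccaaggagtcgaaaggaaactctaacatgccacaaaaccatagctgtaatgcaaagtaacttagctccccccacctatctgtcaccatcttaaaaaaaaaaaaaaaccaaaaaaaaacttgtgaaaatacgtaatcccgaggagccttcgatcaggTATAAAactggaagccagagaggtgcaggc
Gzmb promoter, chr14:56262335-56262584, minus strand: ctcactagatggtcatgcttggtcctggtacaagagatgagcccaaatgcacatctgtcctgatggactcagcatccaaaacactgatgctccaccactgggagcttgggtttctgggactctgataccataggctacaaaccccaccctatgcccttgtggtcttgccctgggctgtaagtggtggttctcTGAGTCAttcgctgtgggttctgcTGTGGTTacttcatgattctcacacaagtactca
Nkg7 promoter, chr7:43436888-43437137, plus strand: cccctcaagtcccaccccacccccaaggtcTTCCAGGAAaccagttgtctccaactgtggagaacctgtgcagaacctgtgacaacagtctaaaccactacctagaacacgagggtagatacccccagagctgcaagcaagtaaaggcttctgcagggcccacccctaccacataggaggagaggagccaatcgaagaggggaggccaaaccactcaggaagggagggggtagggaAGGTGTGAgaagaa
In *Ifng*, the capitals mark a STAT match (TTCNNNGAA) that begins 249 bases before the start and a TATA box (TATAAA) that begins 30 bases before it. In *Gzmb* they mark an AP-1 match (TGAGTCA) 58 bases before the start and a RUNX match (AACCACA, here on the other strand as TGTGGTT) 34 bases before it. The *Nkg7* window holds a STAT match 220 bases before the start and the T-box motif AGGTGTGA 14 bases before it. Both strands were searched. Of 32851 promoters of this length, 1.12% hold AGGTGTGA, 7.02% the STAT motif, 4.4% the RUNX motif, 4.46% the AP-1 motif and 12.4% TATAAA. The shorter T-box core GGTGTG, which lies within AGGTGTGA, was in *Fasl*, *Gzmk* and *Nkg7* and in 16.3% of all promoters. *Gzma* had a RUNX match 51 bases before its start, and the windows of *Prf1*, *Tbx21* and *Eomes* held none of these letters. A match describes the sequence and was not tested as a binding site.

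Sequencing depth was similar across groups. WT libraries had 20512315 to 27174764 estimated counts, *Tlr7* KO libraries 24857275 to 28814250 and *Ifnar1* KO libraries 25542645 to 26845375. A count of 3 was worth 0.082 to 0.158 CPM. Epithelial markers of the gland (*Krt8*, *Krt18*, *Epcam* and *Aqp5*) summed to 475 to 603 CPM in WT and 646 to 738 CPM in the knockouts. Within WT, WT 2 stood apart: its 9 genes summed to 3.16 CPM, against 10.6 in WT 1 and 9.27 in WT 3. Its T cell markers were likewise the lowest of WT, at 31.3 CPM summed over 10 genes against 73.2 and 95.8. Muscle RNA (*Acta1* plus *Ckm*) was present at 154 CPM in WT 1, 96 CPM in WT 2 and 121 CPM in *Tlr7* KO 4 but at no more than 4.75 CPM in the other mice, and its part in the results was not tested. The disrupted genes were still detected as RNA, *Tlr7* at 2.39 ± 0.763 CPM in WT, 0.778 ± 0.177 in *Tlr7* KO and 0.562 ± 0.289 in *Ifnar1* KO mice. *Ifnar1* was at 13.5 ± 2.63 CPM in WT, 9.56 ± 1.08 in *Tlr7* KO and 9.02 ± 0.648 in *Ifnar1* KO mice. A small deletion can leave the transcript in place, so these levels do not check the labels.

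**Figure D1:**
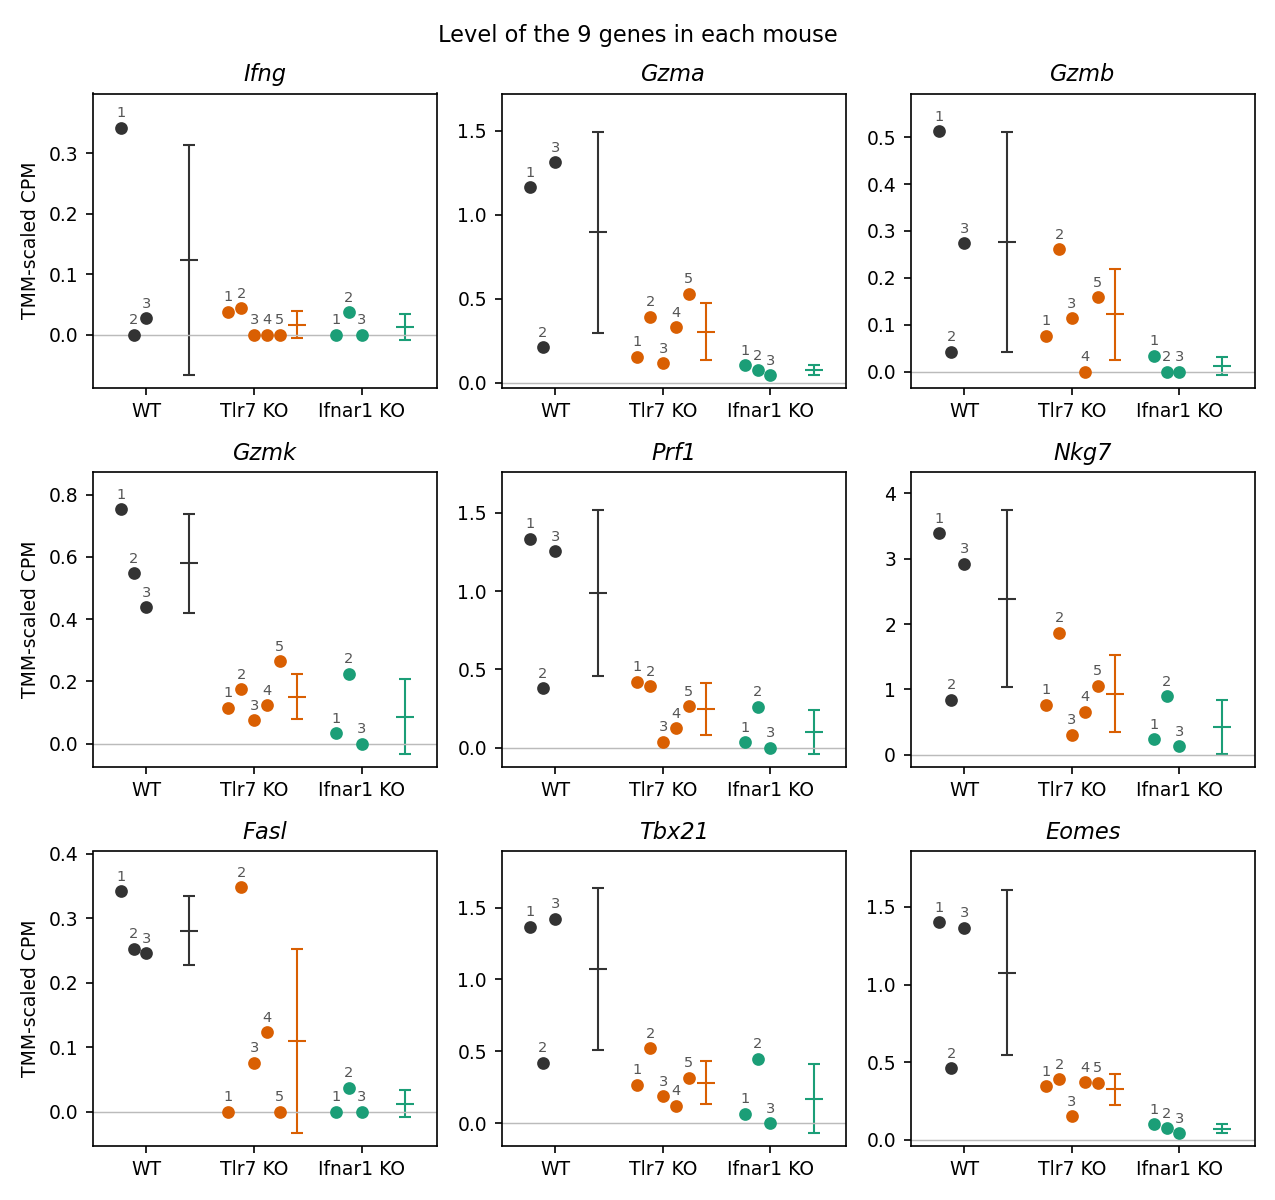
Level of each of the 9 genes (y axis, TMM-scaled CPM) in each mouse, with dots numbered by replicate and the bar giving the mean ± SD of the group. WT 1 and WT 3 are the highest 2 of the 11 mice in 6 of the 9 panels, and Ifnar1 KO 3 is the lowest of its group in all 9, tied at 0 with another mouse for *Ifng*, *Gzmb* and *Fasl*.

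*Ifng*, which encodes interferon gamma, was close to the detection limit in every group. WT mice had 10, 0 and 1 counts. The *Tlr7* KO mice had 1, 1, 0, 0 and 0 counts, and the *Ifnar1* KO mice 0, 1 and 0. A single gland, that of WT 1, thus held 10 of the 11 WT counts, and the groups overlapped. Pooled over mice, the WT level was 7.29-fold that of *Tlr7* KO, with a 95% interval of 1.59 to 67.7 that covers counting error only. Against *Ifnar1* KO it was 9.83-fold (interval 1.43 to 423). Neither comparison passed the test. The log2 fold change in *Tlr7* KO was -2.57 (SE 1.27, adjusted p = 0.173) and turned to 0.034 without WT 1. In *Ifnar1* KO it was -2.93 (SE 1.66, adjusted p = 0.269), and -4.87 (SE 2.59) without *Ifnar1* KO 2. Without WT 1 that estimate was only -0.29 (SE 1.84, adjusted p = 0.945). A change in *Ifng* itself was thus not detectable beyond the spread between mice at this depth. The fitted values of *Ifng*, *Gzmb* and *Fasl* come from the same fit without a filter on low counts and, in groups with so few counts, depend on the prior count of the fit.

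*Gzma* and *Gzmk* were better resolved than *Ifng*, while the granzyme gene *Gzmb*, like *Ifng*, failed the filter on low WT counts. *Gzma*, a tryptase of granules, was measured at 1.16, 0.211 and 1.31 CPM in WT, from 34, 5 and 48 counts. Levels in *Tlr7* KO mice were 0.153, 0.391, 0.114, 0.330 and 0.528 CPM, and the *Ifnar1* KO mice 0.102, 0.0747 and 0.0419 CPM. Every *Ifnar1* KO mouse thus lay below every WT and every *Tlr7* KO mouse, while WT 2 lay within the *Tlr7* KO range. *Ifnar1* KO 1 and *Tlr7* KO 3 both had 3 counts, so these knockout mice stand apart only through scaling. In the other count table the knockouts overlapped, with 4, 2, 1, 4 and 4 counts in *Tlr7* KO and 3, 2 and 1 in *Ifnar1* KO. *Gzma* fell in *Ifnar1* KO (log2 fold change -3.56, SE 0.805, adjusted p = 0.0281). In *Tlr7* KO the estimate was -1.62 (SE 0.605, adjusted p = 0.0661), which did not pass the test. It passed with the other count table, at -2.38 (adjusted p = 0.0117), and in a single fit of all 11 mice (adjusted p = 0.0463).

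*Gzmk*, a granzyme of memory-like CD8 T cells, had 0.753, 0.548 and 0.437 CPM in WT. It was the one granule gene in which WT 2 was not the lowest WT mouse. In *Tlr7* KO they were 0.115, 0.174, 0.0760, 0.124 and 0.264 CPM, and in *Ifnar1* KO 0.0341, 0.224 and 0 CPM. Neither knockout group overlapped WT. *Gzmk* fell by 1.95 on the log2 scale in *Tlr7* KO (SE 0.428, adjusted p = 0.00913), the smallest adjusted p of the 9 genes in that comparison. In *Ifnar1* KO the estimate was -2.69 (SE 0.851, adjusted p = 0.0633), which did not pass. *Ifnar1* KO 2 held 6 of the 7 counts of that group, and without it the estimate moved to -4.68 (SE 0.923, adjusted p = 0.0335). Without *Ifnar1* KO 1 or the third *Ifnar1* KO mouse the adjusted p was 0.178 and 0.141.

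*Gzmb*, the apoptosis-inducing granzyme, had 15, 1 and 10 counts in WT. Those in *Tlr7* KO mice were 2, 6, 3, 0 and 3, and the *Ifnar1* KO mice 1, 0 and 0. WT 2 lay inside the *Tlr7* KO range. It was above the highest *Ifnar1* KO mouse only through scaling, at 0.0422 against 0.0341 CPM, since both had 1 count. The pooled WT level was 2.46-fold that of *Tlr7* KO (95% interval 1.24 to 5.1) and 23.2-fold that of *Ifnar1* KO (3.82 to 953). With the spread between mice, neither passed: the log2 fold change was -1.21 (SE 0.823, adjusted p = 0.326) in *Tlr7* KO and -4.10 (SE 1.24, adjusted p = 0.0640) in *Ifnar1* KO. In *Ifnar1* KO the adjusted p was 0.0170 without WT 2, and 0.136 to 0.205 without any other single mouse. A single fit of all 11 mice gave 0.0317 there. Without WT 1 the estimates were -0.49 in *Tlr7* KO and -3.36 in *Ifnar1* KO, and without *Ifnar1* KO 1 the latter was -6.00.

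*Prf1*, the pore-forming perforin, had 1.33, 0.380 and 1.26 CPM in WT, from 39, 9 and 46 counts. The 5 *Tlr7* KO mice had 0.421, 0.391, 0.0380, 0.124 and 0.264 CPM. The *Ifnar1* KO mice had 0.0341, 0.262 and 0 CPM. WT 1 and WT 3 stood above every knockout mouse, and WT 2 lay within the *Tlr7* KO range and above all *Ifnar1* KO mice. *Prf1* fell by 2.01 (log2 scale, SE 0.604, adjusted p = 0.0311) in *Tlr7* KO, and it fell by 3.30 in *Ifnar1* KO (SE 0.937, adjusted p = 0.0479). The latter call was lost in the other count table (-2.62, adjusted p = 0.0632), and the estimate moved to -5.47 (SE 1.09) without *Ifnar1* KO 2.

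*Nkg7*, a granule membrane protein of T and NK cells, had the most counts of the 9, with 99, 20 and 107 counts in WT. Its levels were 3.39, 0.844 and 2.93 CPM in WT and 0.766, 1.87, 0.304, 0.659 and 1.06 CPM in *Tlr7* KO mice. The *Ifnar1* KO mice had 0.238, 0.897 and 0.126 CPM. WT 2 was below *Tlr7* KO 2, *Tlr7* KO 5 and *Ifnar1* KO 2, so both knockout groups overlapped WT. Neither comparison passed the test, at -1.38 (SE 0.543, adjusted p = 0.0775) in *Tlr7* KO and -2.53 (SE 0.752, adjusted p = 0.0540) in *Ifnar1* KO. Without WT 2, both did, with adjusted p of 0.0127 and 0.0155. Without *Ifnar1* KO 2 the latter estimate was -3.68 (SE 0.767, adjusted p = 0.0368).

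*Fasl*, the ligand of the death receptor Fas, had 10, 6 and 9 counts in WT, and it was the most even of the 9 genes among WT mice at 0.280 ± 0.0536 CPM. The *Tlr7* KO mice split widely, with 0, 8, 2, 3 and 0 counts. Only 1 count was found among the *Ifnar1* KO mice, in *Ifnar1* KO 2. *Tlr7* KO 2 (0.348 CPM) was thus above the highest WT mouse (0.342 CPM), while the *Ifnar1* KO group lay entirely below WT. The pooled WT level was 2.55-fold that of *Tlr7* KO (95% interval 1.26 to 5.43) and 22.3-fold that of *Ifnar1* KO (3.66 to 917). The log2 fold change was -1.32 in *Tlr7* KO (SE 0.855, adjusted p = 0.301), and -2.35 without *Tlr7* KO 2 (SE 0.835, adjusted p = 0.0749). It was -4.09 in *Ifnar1* KO (SE 0.965), with an adjusted p of 0.0312 in the fit without a filter on low counts. This call held in 5 of 13 alternatives, among them that without *Ifnar1* KO 2, where the estimate was -6.03 (SE 1.38). It was lost without WT 1 (0.0994), WT 3 (0.0798), *Ifnar1* KO 1 (0.105) or the third *Ifnar1* KO mouse (0.111), in the other count table (0.0508) and with the replicate block (0.120), all adjusted p, and DESeq2 gave no adjusted p.

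The 2 T-box factors came last. *Tbx21* (T-bet) had 1.37, 0.422 and 1.42 CPM in WT. In *Tlr7* KO it had 0.268, 0.522, 0.190, 0.124 and 0.317 CPM, and in *Ifnar1* KO 0.0681, 0.449 and 0 CPM. WT 2 lay below *Tlr7* KO 2 and *Ifnar1* KO 2, and the other 2 WT mice were above all knockout mice. *Tbx21* fell in *Tlr7* KO (-1.93, SE 0.500, adjusted p = 0.0174). In *Ifnar1* KO the estimate was -2.64 (SE 0.952, adjusted p = 0.0887), which did not pass. Without *Ifnar1* KO 2 it was -4.73 (SE 1.03, adjusted p = 0.0389).

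*Eomes*, the T-box factor of NK cells and memory CD8 T cells, was the one gene whose 3 groups were apart. Its levels were 1.40, 0.464 and 1.37 CPM in WT. *Tlr7* KO mice had 0.344, 0.391, 0.152, 0.371 and 0.370 CPM. The *Ifnar1* KO mice had 0.102, 0.0747 and 0.0419 CPM, from 3, 2 and 1 counts. Every WT mouse was above every *Tlr7* KO mouse and every *Tlr7* KO mouse above every *Ifnar1* KO mouse. In counts the gaps were small. WT 2 had 11 counts against 9 in *Tlr7* KO 2, and *Tlr7* KO 3 had 4 against 3 in *Ifnar1* KO 1. *Eomes* fell by 1.74 on the log2 scale in *Tlr7* KO (SE 0.426, adjusted p = 0.0138) and fell by 3.82 in *Ifnar1* KO (SE 0.633, adjusted p = 0.0218).

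Counted over the comparison of WT with *Tlr7* KO glands, *Gzmk*, *Prf1*, *Tbx21* and *Eomes* fell, 4 of the 6 members tested. Of all genes tested, 32.8% passed in either direction and 17.4% were lower in *Tlr7* KO. *Ifng*, *Gzmb* and *Fasl* had under 30 counts over the WT mice and were left out of that test. As the filter reads only WT, where these genes are highest, the count over those that passed it is no support by itself. Groups did not overlap for *Gzmk* and *Eomes*, 2 of 9 and 2 of the 6 tested, against 30.8% of all genes tested in either direction and 14.2% lower in *Tlr7* KO. Without WT 1 or without WT 3, *Gzmk* alone passed, with adjusted p of 0.0495 and 0.0214. *Prf1* was then at -1.75 and -1.80, *Tbx21* at -1.73 and -1.67, and *Eomes* at -1.52 and -1.53. *Prf1* also missed the threshold without *Tlr7* KO 4 (adjusted p = 0.0663) and without *Tlr7* KO 5 (adjusted p = 0.0581). Without WT 2, all 6 passed, as did 6664 of the 13937 genes tested against 4566 with all mice. In the other count table *Gzma* passed too, so that 5 did, against 4010 of the 13050 genes tested there.

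Against *Ifnar1* KO glands, *Gzma*, *Prf1* and *Eomes* fell, 3 of the 6 tested. Here 19.2% of all genes tested passed in either direction and 12.4% were lower in *Ifnar1* KO. Both comparisons use the same 3 WT mice, and the mouse left out by the study would have been in this group. Groups did not overlap in 6 of 9 (*Gzma*, *Gzmb*, *Gzmk*, *Prf1*, *Fasl* and *Eomes*) and in 4 of the 6 tested, against 41.8% of all genes tested in either direction and 21.1% lower in *Ifnar1* KO. By edgeR, 5 passed without WT 2 and 5 without *Ifnar1* KO 2. The latter 5 did not include *Gzma* (adjusted p = 0.0684), which kept its call without WT 2 and lost it without any other single mouse (adjusted p up to 0.102). None passed when WT 1, WT 3, *Ifnar1* KO 1 or the third *Ifnar1* KO mouse was left out, while 5, 5, 3 and 6 in that order were at an unadjusted p under 0.05, against 3799, 3790, 4383 and 3778 of the 13937 genes tested. DESeq2 on all 6 mice called all 6. In the other count table *Gzma*, *Nkg7* and *Eomes* passed and *Prf1* did not, against 2507 of the 13050 genes tested there. Over the whole table, 2677 genes passed with all mice, 13 without WT 1, 4666 without WT 2, 121 without WT 3, 1590 without *Ifnar1* KO 2 and 0 without either other *Ifnar1* KO mouse.

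**Figure D2:**
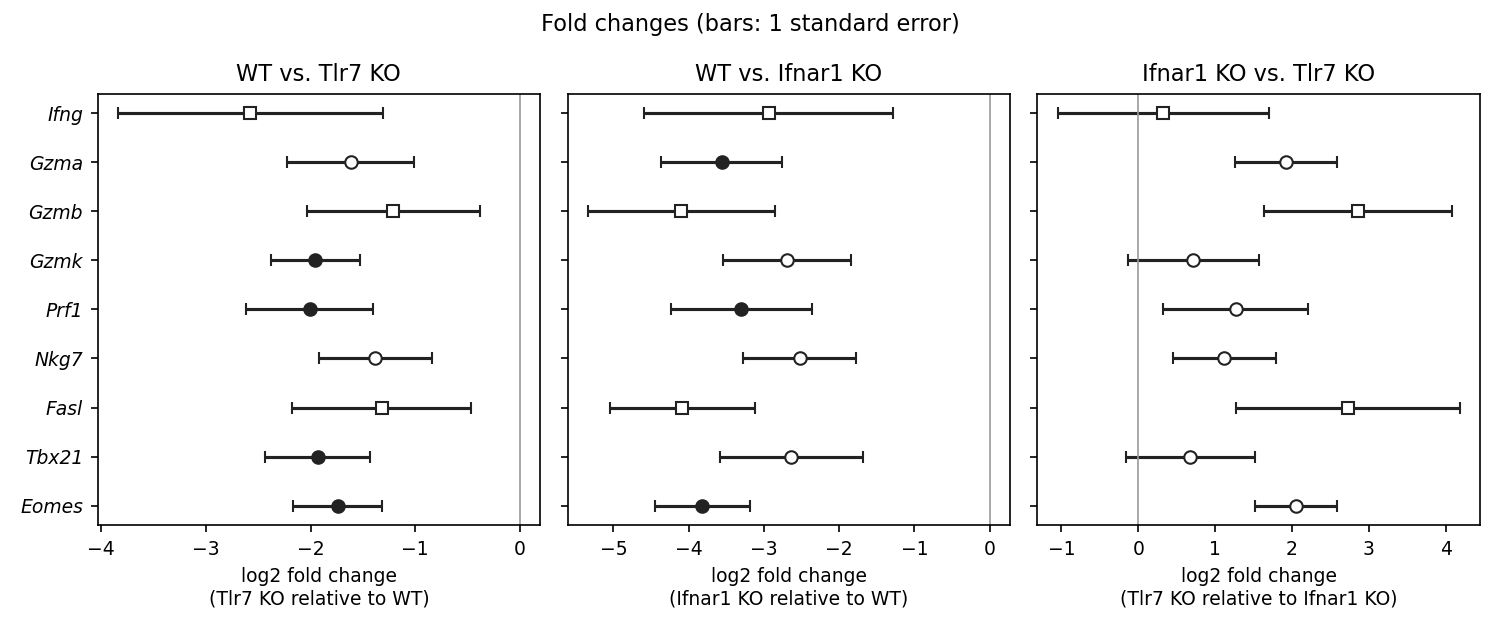
Log2 fold change (x axis) of the 9 genes in the 3 comparisons, with bars of 1 standard error. Circles are genes tested with the filter on low WT counts, filled at an adjusted p under 0.05, and squares, left white, are Ifng, Gzmb and Fasl from the fit without that filter, where Fasl passed 0.05 in Ifnar1 KO. All 18 estimates against WT are below 0, and the third panel gives Tlr7 KO relative to Ifnar1 KO.

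The 2 knockouts were compared with each other directly. No member differed at an adjusted p under 0.05 by edgeR's quasi-likelihood test or by DESeq2, and 1.79% of all genes tested did by edgeR (0.926% higher in *Tlr7* KO). At an unadjusted p under 0.05, 2 of the 6 did, *Eomes* and *Gzma*, against 2270 of the 13937 genes tested. *Eomes* was higher in *Tlr7* KO than in *Ifnar1* KO by 2.05 on the log2 scale (SE 0.535, adjusted p = 0.0934), and *Gzma* by 1.92 (SE 0.665, adjusted p = 0.192). These were also the 2 of 9 whose groups did not overlap, against 10.7% of all genes tested (5.47% higher in *Tlr7* KO). For *Eomes* the nearest mice had 4 counts (*Tlr7* KO 3) and 3 counts (*Ifnar1* KO 1). For *Gzma* the counts tied at 3 in a mouse of each group, and the groups overlapped in the other count table, where the difference was 0.77 (SE 0.686, adjusted p = 0.634). The estimates of *Prf1* (1.26, SE 0.945), *Nkg7* (1.12, SE 0.670), *Gzmk* (0.71, SE 0.852) and *Tbx21* (0.68, SE 0.836) were within 2 standard errors of 0. Without *Ifnar1* KO 2 they were 3.41 (SE 1.25), 2.29 (SE 0.721), 2.68 (SE 1.06) and 2.77 (SE 0.957) in the same order. All 6 members then had an unadjusted p under 0.05, as did 3034 of the 13937 genes tested, and no member passed after adjustment. *Gzmb* (2.86, SE 1.22), *Fasl* (2.72, SE 1.46) and *Ifng* (0.32, SE 1.37) came from the fit without a filter, with adjusted p of 0.334, 0.439 and 0.943.

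Mice that were high for one cytotoxic gene tended to be high for the rest. *Tlr7* KO 2 was the highest of its group in 6 of the 9 genes, and its 9 genes summed to 4.39 CPM against 1.06 to 2.96 in the other *Tlr7* KO mice. *Ifnar1* KO 2 was likewise the highest of its group in 6, with a sum of 2.06 CPM against 0.613 and 0.209. In *Ifnar1* KO 3, 6 of the 9 genes had no count. Markers of lymphocytes were high in the same mice: T cell markers summed to 36.7 CPM in *Tlr7* KO 2 (others 6.91 to 15.4) and to 18.2 CPM in *Ifnar1* KO 2 (others 2.14 and 6.40).

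Lymphocyte markers moved with the 9 genes in the comparisons with WT as well. From here on, where 2 values are given for a gene, the first is for *Tlr7* KO and the second for *Ifnar1* KO, both on the log2 scale. Of the 10 genes of the T cell list, all had estimates below 0 in both knockouts, and 9 fell in *Tlr7* KO and 10 in *Ifnar1* KO, with a median log2 fold change of -1.92 and -2.84. The medians over all genes tested were -0.04 and -0.02. *Cd3g*, a chain of the T cell receptor complex, fell by 2.08 (SE 0.470, adjusted p = 0.0103) and fell by 3.25 (SE 0.682, adjusted p = 0.0253). The coreceptor *Cd4* fell by 1.95 (adjusted p = 0.00997) and fell by 3.04 (adjusted p = 0.0295). The CD8 coreceptor genes *Cd8a* and *Cd8b1* summed to 0.759 to 4.11 CPM in WT, 0.418 to 2.44 in *Tlr7* KO and 0.0419 to 1.12 in *Ifnar1* KO mice. *Cd8a* did not pass the test in either knockout (-1.55 and -2.38, adjusted p = 0.0605 and 0.0902). Nor did *Cd8b1* (-1.35 and -2.71, adjusted p = 0.22 and 0.0831). *Ncr1* and *Klrb1c*, used here as markers of NK cells, summed to 1.18 to 2.76 CPM in WT, 0.268 to 1.06 in *Tlr7* KO and 0 to 0.224 in *Ifnar1* KO mice. On this sum the groups did not overlap. *Klrb1c* was named after its values were seen. Its estimate in *Tlr7* KO was -2.29 (SE 0.799, adjusted p = 0.0526), which did not pass, and it fell by 4.71 in *Ifnar1* KO (adjusted p = 0.0225). Of the B cell markers, all 8 were lower in both knockouts, with medians of -3.25 and -4.22. Mast cells also express granule proteases, and their summed markers did not separate the groups (2.28 to 6.26, 2.39 to 6.02 and 3.77 to 5.19 CPM). Of the 5 CD8 T cell genes tested, 2 fell in *Tlr7* KO (*Ccl5* and *Cd7*) and 1 in *Ifnar1* KO (*Ccl5*), neither of them a CD8 coreceptor gene. Of 8 myeloid genes, 4 fell in each knockout, with medians of -0.54 and -1.19. Of 6 mast cell genes tested, *Kit* passed in *Tlr7* KO (-0.59, adjusted p = 0.0357) and had -0.65 in *Ifnar1* KO (adjusted p = 0.0920). Of 8 epithelial genes, 3 fell and 2 rose in *Tlr7* KO and 1 fell in *Ifnar1* KO, and of 6 adipocyte and muscle genes none passed by edgeR, with the 3 muscle genes at an unadjusted p under 0.05 in *Ifnar1* KO. None of the markers summed here was at 0 in all mice. The part of cell numbers in the fall of the 9 genes was not tested.

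To set the 9 genes beside T cell content, each count was divided by the summed counts of *Cd3d*, *Cd3e* and *Cd3g* in the same mouse, as a description. These denominators were 173 to 770 counts in WT, 52 to 212 in *Tlr7* KO and 12 to 120 in *Ifnar1* KO mice. On this scale the groups overlapped for most genes. The 9 genes together made 44.9 counts per 100 Cd3 counts in WT, 54.9 in *Tlr7* KO and 43.1 in *Ifnar1* KO mice, pooled over mice. *Tbx21* stood at 6.33, 6.31 and 7.74 in that order, and *Gzmk* at 3.16, 3.25 and 3.87. *Ifnar1* KO 2 weighs most in the pooled *Ifnar1* KO values. As means per mouse, *Tbx21* was at 4.69 in *Ifnar1* KO against 6.17 in WT, and *Gzmk* at 2.35 against 4.29, so that the direction turned for both. *Gzma* turned the other way there. In *Tlr7* KO the means per mouse were 6.82 for *Tbx21* and 3.84 for *Gzmk*, so that both turned against their pooled direction as well. As pooled ratios, *Prf1* was at 5.83, 5.55 and 4.42, *Eomes* at 6.33, 7.27 and 3.32, and *Gzma* at 5.40, 6.50 and 3.32. The pooled ratio was below WT in 3 of 9 genes in *Tlr7* KO and in 6 of 9 in *Ifnar1* KO, and the mean ratio in 3 and 7. In each comparison with WT, the groups overlapped in 8 of 9. The exceptions were *Nkg7*, for which the 5 *Tlr7* KO mice (15.4 to 28.2 per 100 Cd3 counts) were above the 3 WT mice (11.6 to 14.8), and *Fasl*, for which the *Ifnar1* KO mice (0 to 0.833) were below WT (1.17 to 3.47). With the 10 T cell genes as the denominator both stayed apart, while in the other count table *Nkg7* overlapped as well. The *Fasl* gap rests on 1 count in the *Ifnar1* KO mice. Cd3 counts leave out NK cells, which also make these proteins.

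**Figure D3:**
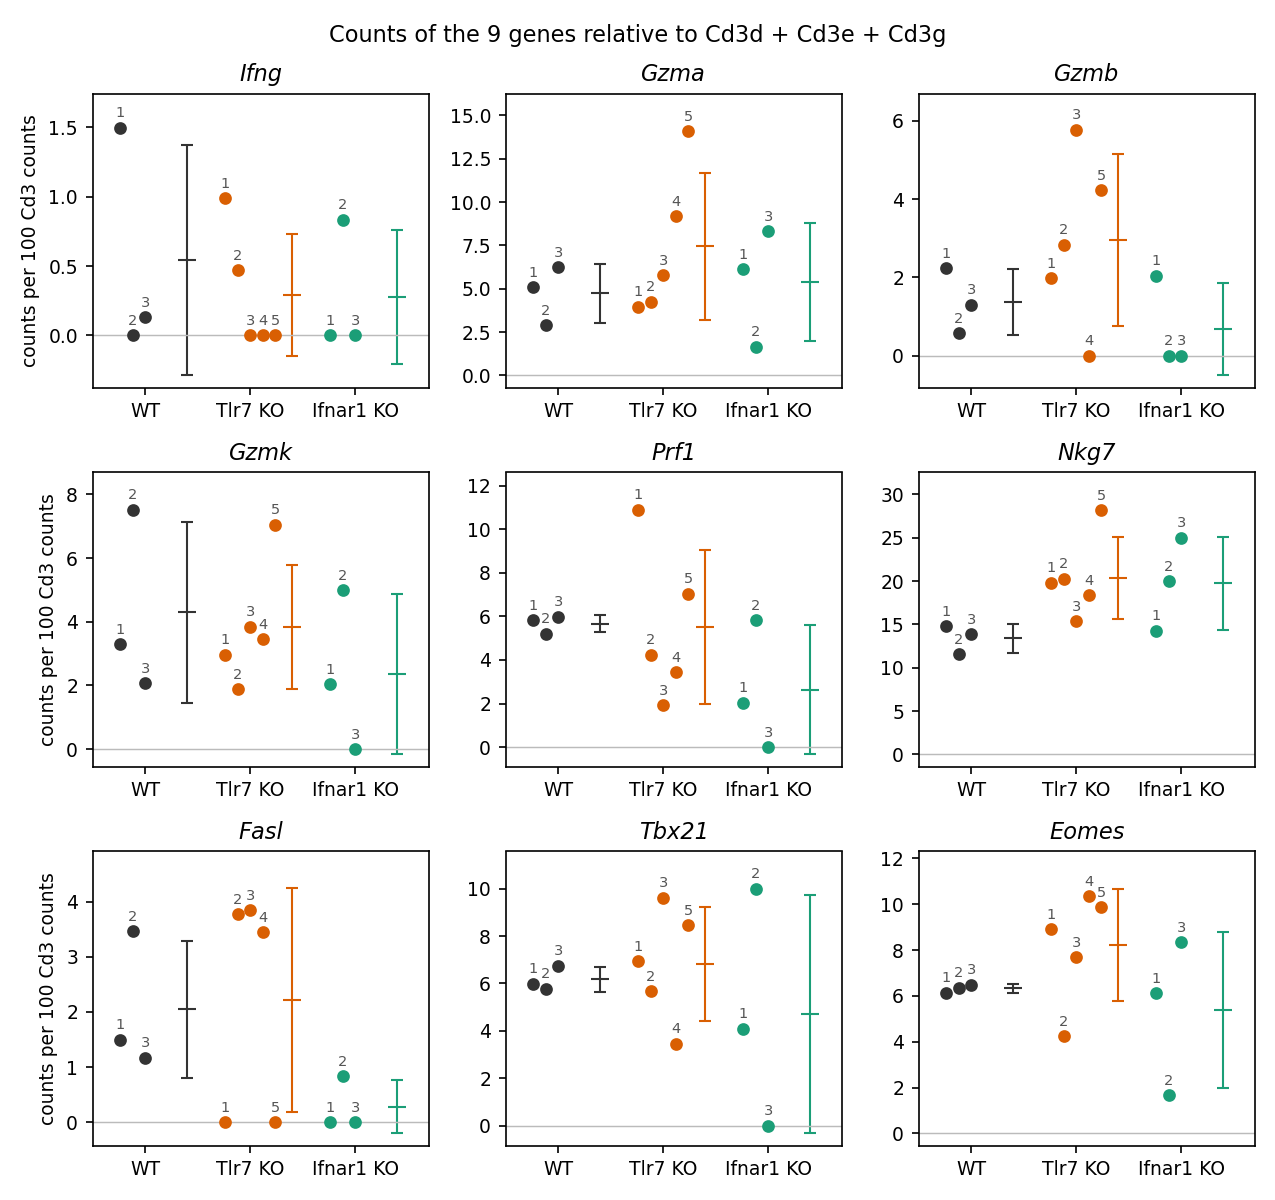
Counts of each gene per 100 summed counts of Cd3d, Cd3e and Cd3g in the same mouse (y axis), with dots numbered by replicate and the bar giving the mean ± SD of the group. The groups overlap in all panels but Nkg7 for Tlr7 KO, which is higher than WT, and Fasl for Ifnar1 KO, which is lower; Ifnar1 KO 3 has only 12 Cd3 counts.

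Other parts of the killing machinery were read from lists of pathway genes. Among receptors and chemokines of NK cells and cytotoxic T cells, 12 of 15 genes were tested, and 5 fell in *Tlr7* KO and 8 in *Ifnar1* KO, with medians of -1.68 and -3.03. The NK cell receptor *Ncr1* was at 1.31 ± 0.517 CPM in WT, 0.448 ± 0.157 in *Tlr7* KO and 0.0736 ± 0.0995 in *Ifnar1* KO mice. It fell by 1.56 (SE 0.377, adjusted p = 0.0131) and fell by 4.09 (SE 0.802, adjusted p = 0.0235). *Klrk1*, which encodes the activating receptor NKG2D, fell by 1.65 (SE 0.388, adjusted p = 0.0121) and fell by 3.57 (SE 0.811, adjusted p = 0.0284). The chemokine gene *Xcl1* fell by 2.19 in *Tlr7* KO (adjusted p = 0.0182), and its estimate in *Ifnar1* KO was -2.77 (adjusted p = 0.0924).

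Of the list of other granzymes and granule machinery, 12 genes were tested, and 8 fell and 1 rose in *Tlr7* KO and 6 fell in *Ifnar1* KO, with medians of -1.12 and -1.67. Its 4 genes with the highest CPM are also expressed by gland cells. *Lamp1*, a lysosomal membrane protein, was at 156 ± 12.3 CPM in WT, 161 ± 6.49 in *Tlr7* KO and 152 ± 7.64 in *Ifnar1* KO mice (adjusted p = 0.728 and 0.778). *Rab27a*, a regulator of granule release, rose in *Tlr7* KO (0.38, SE 0.104, adjusted p = 0.0216), a rise that depends on the scaling: by library size only, the median of all genes lies at -0.54 in *Tlr7* KO and at -0.31 in *Ifnar1* KO, and changes smaller than this are read relative to it. *Stxbp2*, which acts in granule fusion, had estimates of -0.05 and 0.05 (adjusted p = 0.647 and 0.784). *Ctsc*, the protease that activates granzymes, fell by 0.59 in *Tlr7* KO (adjusted p = 0.0134) and had an estimate of 0.07 in *Ifnar1* KO (adjusted p = 0.889). *Cst7*, an inhibitor of cathepsin C, fell by 2.14 (adjusted p = 0.0107) and fell by 3.41 (adjusted p = 0.0250). *Unc13d*, which primes granules for release, fell by 2.15 (adjusted p = 0.0146) and fell by 2.78 (adjusted p = 0.0350). Serglycin (*Srgn*), the proteoglycan that packs granzymes, fell by 1.89 (adjusted p = 0.00466) and fell by 2.50 (adjusted p = 0.0227). These 3 genes were chosen after their values were seen.

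The target side of Fas ligand was read from the death receptor list, whose 12 genes also include ligands. Of these 12, 6 fell in *Tlr7* KO and 5 in *Ifnar1* KO, ligands among them. Estimates were below 0 for 10 and 11, with medians of -0.42 and -0.67. The counts are thus not of the target side alone. *Casp8*, the caspase that Fas recruits, fell by 0.54 (SE 0.144, adjusted p = 0.0200) and fell by 0.63 (SE 0.180, adjusted p = 0.0480). *Cflar*, which restrains caspase-8, fell by 0.38 in *Tlr7* KO (adjusted p = 0.0219) and had -0.19 in *Ifnar1* KO (adjusted p = 0.540). The receptor *Tnfrsf1a* fell by 0.38 in *Tlr7* KO (adjusted p = 0.00681) and had -0.36 in *Ifnar1* KO (adjusted p = 0.0512). *Fas* itself was at 3.54 ± 0.608, 3.05 ± 0.420 and 3.04 ± 0.599 CPM in WT, *Tlr7* KO and *Ifnar1* KO mice (adjusted p = 0.349 and 0.489). *Fas* was named after its values were seen, as the receptor of *Fasl*.

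Of the 22 genes for signals that induce type 1 lymphocytes 19 were tested, and 9 fell in *Tlr7* KO and 11 in *Ifnar1* KO, with medians of -1.25 and -2.23. The 4 genes of this list with the highest CPM are expressed by many cell types. *Id2*, a transcriptional inhibitor, had estimates of 0.50 (adjusted p = 0.113) and -0.34 (adjusted p = 0.519), and *Il15ra* of -0.23 (adjusted p = 0.358) and -0.36 (adjusted p = 0.355). *Zeb2*, which acts with T-bet in late effector cells, fell by 1.48 in *Ifnar1* KO (adjusted p = 0.0354) and had -0.54 in *Tlr7* KO (adjusted p = 0.0874). *Il18r1*, a chain of the interleukin 18 receptor, fell by 1.16 in *Ifnar1* KO (SE 0.316, adjusted p = 0.0428) and had -0.12 in *Tlr7* KO (SE 0.209, adjusted p = 0.683). *Stat4*, which carries the interleukin 12 signal, fell by 3.03 (SE 0.693, adjusted p = 0.0107) and fell by 3.46 (SE 0.848, adjusted p = 0.0338). *Runx3*, a partner of T-bet in cytotoxic cells, fell by 2.01 (SE 0.327, adjusted p = 0.00298) and fell by 2.47 (SE 0.579, adjusted p = 0.0304). *Stat4* and *Runx3* were chosen after their values were seen.

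Genes that carry the response to interferon gamma were read next. Of the 9 genes of its receptor and signalling, 6 fell in *Tlr7* KO and 7 in *Ifnar1* KO, with medians of -1.08 and -1.38. The receptor chain *Ifngr1* fell by 0.64 (adjusted p = 0.0185) and fell by 0.97 (adjusted p = 0.0341), while the kinase *Jak1* had estimates of 0.11 and -0.17 (adjusted p = 0.449 and 0.379). Of the 10 responsive genes 7 were tested, and 5 fell in *Tlr7* KO and 7 in *Ifnar1* KO, with medians of -1.79 and -3.25. The T cell chemokine *Cxcl9* was at 28.2 ± 15.7 CPM in WT, 5.34 ± 4.60 in *Tlr7* KO and 2.32 ± 3.20 in *Ifnar1* KO mice. It fell by 2.43 (SE 0.640, adjusted p = 0.0187) and fell by 3.63 (SE 1.03, adjusted p = 0.0481). *Igtp*, an interferon-inducible GTPase, fell by 2.01 (adjusted p = 0.0386) and fell by 4.03 (adjusted p = 0.0271). *Gbp2*, a guanylate-binding protein, fell by 1.92 (adjusted p = 0.0227) and fell by 3.25 (adjusted p = 0.0277). *Irgm1*, another such GTPase, had an estimate of -1.19 in *Tlr7* KO that did not pass (adjusted p = 0.0687), and it fell by 2.88 in *Ifnar1* KO (adjusted p = 0.0256). Several of these genes, *Igtp* among them, also respond to type I interferon, which the *Ifnar1* KO cannot sense, so the 2 interferons cannot be told apart here.

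Regulators of other helper T cell types were read for contrast, with 4 of 11 genes tested, and 1 fell in *Tlr7* KO and 2 in *Ifnar1* KO. *Gata3* of type 2 cells fell by 2.79 in *Ifnar1* KO (SE 0.567, adjusted p = 0.0244) and had -1.21 in *Tlr7* KO (adjusted p = 0.0732). *Foxp3* of regulatory T cells had -0.94 and -1.40 (adjusted p = 0.350 and 0.184). *Bcl6*, of follicular helper and many other cells, fell in *Ifnar1* KO from 31.9 ± 4.92 to 6.11 ± 0.595 CPM (adjusted p = 0.00789). In *Tlr7* KO it was at 42.4 ± 9.92 CPM, with an estimate of 0.41 (SE 0.187, adjusted p = 0.122) that did not pass.

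**Figure D4:**
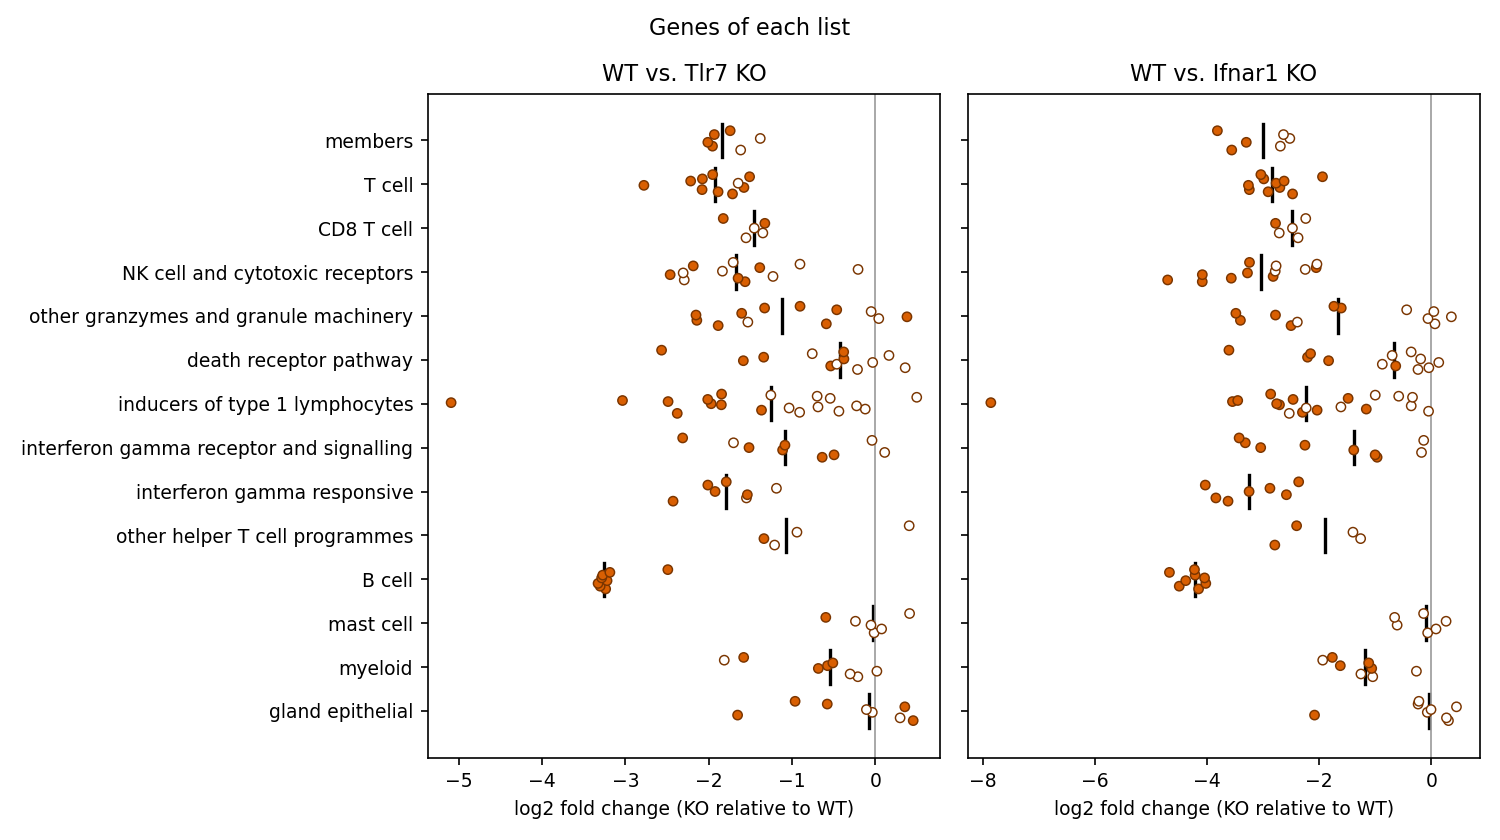
Log2 fold change against WT (x axis) of the tested genes of each list (rows), 1 dot per gene, filled at an adjusted p under 0.05, with a line at the list's median. The 6 tested members lie in the range of the NK cell list, B cell genes lie further down, and mast cell genes lie around 0.

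The genes whose levels followed each member most closely over the 11 mice were named by Pearson's r of log2(CPM + 1), among the 11502 genes whose mean over the mice was 1 CPM or more. This is a description. *Eomes* was followed by *Mical1* (r = 0.995) and *Tgfbr2* (0.993), and *Tbx21* by *Dpysl3* (0.995), *Ahnak* (0.992) and the integrin gene *Itgax* (0.990). *Prf1* was followed by *Pou2f2* and *Itga4* (both 0.989), *Nkg7* by *Myo1g* (0.987) and *Gzma* by *Parp11* (0.971). *Gzmk* was followed by *Gp2* (0.963), *Gzmb* by *Trak2* (0.944) and *Fasl* by *Pim1* (0.942). For these first-ranked genes r stayed at 0.875 or above without the 2 mice farthest from the median of the member. For *Ifng* it did not: its first-ranked gene, *Gm11225*, had r = 0.939 over all mice and -0.428 without WT 1 and *Tlr7* KO 2.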

How the data were processed

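RNA from 1 lacrimal gland per mouse was sequenced in NOD mice, 3 of them WT, 5 *Tlr7* KO and 3 *Ifnar1* KO, and groups were taken from the sample labels. The authors quantified reads with salmon and summed transcripts to genes with tximport, and the deposited table holds these estimated counts, rounded, for 19058 genes. It is named as normalized, but its totals differ between libraries as raw counts do, and it was analysed as counts. Another deposited table, with counts for 39017 genes, was kept for an alternative, and its counting tool is not given in the sources used here. The submitters' processing notes name HISAT2 2.1.0 and mm10. The number of per-sample columns left out is 1, for a mouse with no sample record. Nothing in the labels gives batches.

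R 4.3.3 with edgeR 4.0.16 was used. Genes with at least 30 counts summed over WT were tested (13937) with TMM scaling, edgeR's quasi-likelihood test, separate two-sided fits per comparison and Benjamini-Hochberg adjustment over all genes tested, with DE at an adjusted p under 0.05. Values of *Ifng*, *Gzmb* and *Fasl*, which fail that filter, come from the same fits with no filter. Pooled ratios have exact 95% intervals (conditional binomial, Clopper-Pearson), which cover counting error only. The code was tested on simulated data. Alternatives were DESeq2 1.42.0, RLE factors, library size only, filterByExpr, no filter, a single fit of all 11 mice and the other table. Others were replicate number as a block, each mouse left out, and an adjusted p under 0.01. The block used only mice whose number occurs in both groups.

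The 9 members and the 14 other lists were chosen with earlier results of these data known. In each list the 4 genes with the highest mean CPM may be named, whatever their change, along with *Cd3d*, *Cd3e*, *Cd3g*, *Tlr7*, *Ifnar1* and, per member, up to 3 genes of the most similar pattern. Genes outside this rule were picked with their values in view, as the text says beside each. Not every gene that the rule names is reported here.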

Additional observations from a re-analysis of the deposited data

Results flagged for a closer look

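*Eomes* in *Tlr7* KO 3 lay far from the other mice of its group. Its level was 0.152 CPM, from 4 counts, and the next lowest *Tlr7* KO mouse had 0.344 CPM. The gap made up 0.804 of the group's range, above the critical value of 0.71 for 5 mice. Such a gap was looked for in the 9 genes within the *Tlr7* KO group, and chance marks about 1 in 20 groups.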

How the results depend on the processing

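All 6 tested members had lower estimates in both knockouts than in WT under every alternative that fitted them. The calls moved, not the signs. With filterByExpr, *Gzma* was not fitted in either comparison with WT, and *Prf1* was not fitted in that with *Ifnar1* KO. In *Tlr7* KO, 4 members passed. This became 0 with the replicate block and 1 at an adjusted p under 0.01 (1970 of all genes). It ranged from 1 (without WT 1 or WT 3) to 6 (without WT 2) when single mice were left out. The block fit of *Tlr7* KO against WT had no *Tlr7* KO 4 or *Tlr7* KO 5, as it kept only numbers found in both groups. In *Ifnar1* KO, 3 members passed. This became 6 with DESeq2 (3356 of all genes) or with all 11 mice in a single fit, 1 with filterByExpr (2567 of all genes; it left 4 members to test), and 0 with the replicate block or at an adjusted p under 0.01, where 1 of all genes passed by edgeR. At an unadjusted p under 0.05 in *Ifnar1* KO, 5 members passed with the block and 6 without it, against 3787 and 5235 of the 13937 genes tested. In *Tlr7* KO, 2 members did with the block and 6 without it, against 3630 and 6251 genes. With single mice left out, the *Ifnar1* KO calls at an adjusted p under 0.05 ranged from 0 to 5. They were 0 without WT 1, WT 3, or *Ifnar1* KO 1 or 3, and 5 without WT 2 or *Ifnar1* KO 2. The sign of *Ifng* turned. Its log2 fold change in *Tlr7* KO ranged from -3.09 to 0.034 over mice left out, the highest without WT 1. In *Ifnar1* KO it stayed below 0 but ranged from -4.87 to -0.29, again the highest without WT 1. In *Tlr7* KO relative to *Ifnar1* KO it ranged from -0.19 to 2.11, and was below 0 without *Ifnar1* KO 1 (-0.17), *Ifnar1* KO 3 (-0.075), *Tlr7* KO 1 (-0.14) or *Tlr7* KO 2 (-0.19). The cause was not tested.

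Same-numbered mice did not deviate together (r from -0.44 to 0.34, 2 of 9 pairs over 0.1), so the numbers were not taken as pairs. With the replicate block, 17 of all genes passed in *Tlr7* KO against 4566 without it. That fit also left out *Tlr7* KO 4 and *Tlr7* KO 5, whose numbers no WT mouse has. The block and the loss of these mice cannot be told apart there. In *Ifnar1* KO the block left 0 against 2677, with 3787 at an unadjusted p under 0.05. Scaling by library size only shifted the median of all genes to -0.54 and -0.31. All 6 members then passed in *Tlr7* KO, where 4397 of the 13937 genes tested did. For *Ifnar1* KO, 3 of the 6 passed, among 1340 genes. A single fit of all 11 mice called 5124 genes there. Without WT 1 or WT 3, 2722 and 2602 genes passed in *Tlr7* KO. The pooled ratio to all 10 T cell genes was below WT for 2 (*Tlr7* KO) and 6 (*Ifnar1* KO) of the 9 members, and the mean ratio for 1 and 7. In the other table the pooled ratio to Cd3 was below WT in 4 and 7, and the mean ratio in 3 and 5.

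Precision is limited by depth: 3 members had under 30 counts over the WT mice, and most knockout mice had under 10 counts of each member other than *Nkg7*. Nothing in the labels says how the mice were housed or paired, and p-values measure the spread between these mice only.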
